A study of Mus musculus with 6 samples.

Results

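Oncostatin M and the related cytokines that signal through gp130 were followed across 6 libraries of liver non-parenchymal cells. The genes were 10 in number of the 53546 genes counted, and all 10 were covered well enough to be tested. They are the ligand genes Osm and Lif, the receptor genes Osmr, Lifr, Il6ra, Il11ra1 and Il6st (which encodes gp130), the kinase gene Jak1, the transcription factor gene Stat3 and the feedback inhibitor gene Socs3, each matched by its name in the count files. The set was chosen by the counts of Osm, which had stood out in an earlier look at the same comparison, and its family was then listed around it, so the fold changes of these 10 genes are given as a description and not as a test.

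Cytokines of this family work by bringing gp130 together with a partner receptor. In mouse, oncostatin M pairs gp130 with the oncostatin M receptor, leukaemia inhibitory factor pairs it with the LIF receptor, and interleukin 6 and interleukin 11 first bind their own alpha receptors. The assembled receptor activates JAK1, which leads to phosphorylation of STAT3, and STAT3 in turn raises SOCS3, which binds gp130 and shuts the kinase off. In liver the pathway is known for driving acute phase protein synthesis in hepatocytes and for its part in regeneration, and oncostatin M is made mainly by macrophages, neutrophils and T cells.

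The mutant mice were SRA-/-, lacking scavenger receptor A (gene Msr1), and the comparison mice were wild type, with 3 libraries each, numbered replicates 1, 2 and 3 and called biological in the titles. All mice were male, all received acetaminophen at 400 mg/kg into the peritoneum, a dose that injures hepatocytes, and cells were taken 6 h later; the sources used here state neither strain, age nor the disrupted exon. The cells are a mixture of leukocytes, among them Kupffer cells, with stellate and endothelial cells, so fewer cells of a type and less RNA per cell cannot be told apart. Uninjected mice were not analysed here, and no value below is a response to acetaminophen.

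Totals ran from 23757203 to 44003902 counts in SRA-/- libraries and from 25061773 to 32520128 in wild type libraries. A floor of 6 counts, which stands for 3 fragments with both mates counted, equals 0.136 to 0.253 CPM (counts scaled to a common library size). Msr1 itself gave 925 to 1848 counts in SRA-/- libraries and 1123 to 3838 in wild type libraries, and wild type replicate 1, at 38.6 CPM, lay inside the SRA-/- range of 33.6 to 42.0 CPM, so a count over the whole gene does not separate the genotypes. The libraries also differed in makeup, within each group and for some lists between the groups. The hepatocyte marker list, of cells that the preparation is meant to remove, summed to 53770 to 101700 CPM in SRA-/- libraries and 28740 to 88830 CPM in wild type libraries, and markers of sinusoidal and vascular endothelial cells summed to 2785 to 3335 CPM and 2713 to 4876 CPM in the same order of groups. Markers of mast cells and basophils stayed at 0.182 to 0.305 CPM in SRA-/- libraries and 0.380 to 0.503 CPM in wild type libraries, and Mcpt8 was at 0 in all 6. B cell markers summed to 20.9 to 31.8 CPM in SRA-/- and 10.7 to 12.97 CPM in wild type libraries, T and NK cell markers to 15.9 to 22.04 and 10.9 to 16.9 CPM, Kupffer cell markers to 1179 to 2048 and 813 to 1950 CPM, monocyte markers to 2472 to 3713 and 2482 to 3428 CPM, stellate cell and fibroblast markers to 772 to 1273 and 880 to 1345 CPM, and cholangiocyte and mesothelial markers to 29.1 to 71.95 and 30.4 to 51.55 CPM. The list of pancreatic acinar cells, which lie outside the liver, summed to 4.68, 312 and 3.36 CPM in SRA-/- replicates 1, 2 and 3, against 504, 436 and 841 CPM in wild type replicates 1, 2 and 3, so that SRA-/- replicates 1 and 3 lacked it almost wholly.

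Osm, the gene of oncostatin M (chromosome 11, 4186420 to 4191026, mm39), was the 1 gene of the 10 whose level differed several-fold between the groups. Its counts were 904, 129 and 409 in SRA-/- replicates 1, 2 and 3, against 33, 108 and 143 in wild type replicates 1, 2 and 3. Scaled to library size this was 19.7, 4.31 and 18.6 CPM in SRA-/- cells and 1.13, 4.10 and 4.23 CPM in wild type cells. The high values are those of SRA-/- replicates 1 and 3, while SRA-/- replicate 2 sat at the level of wild type replicates 2 and 3, and wild type replicate 1 was the lowest library of all. SRA-/- replicates 1 and 3 are also the libraries nearly free of pancreatic acinar markers. Of these markers 12 of 13 were tested and 0 had a log2 fold change above 0, against 48.3% of all tested genes. Amy2a5 was at 0 throughout 1 group. The part of pancreatic acinar RNA in the level of Osm was not tested.

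The means were 14.2 ± 8.57 CPM in SRA-/- and 3.16 ± 1.75 CPM in wild type cells (SD, n = 3 each), and the log2 fold change was 2.17 ± 0.60 (SE). Counted as read pairs, the exact 95% Clopper-Pearson interval of SRA-/- replicate 2 was 3.29 to 5.46 CPM and that of wild type replicate 3 was 3.34 to 5.37 CPM, so these libraries could not be told apart at this depth (the intervals cover counting error only). Whether the groups overlap therefore hung on the scaling. The lowest SRA-/- library stood above the highest wild type library by 0.025 on the log2 scale with TMM factors, and the log2 ratio was -0.08 with library totals alone and -0.17 in TPM (counts per exon length, scaled to a common total). With 1 library left out at a time Osm had its smallest log2 fold change, 1.77, when wild type replicate 1 was dropped and its largest, 2.5996, when SRA-/- replicate 2 was dropped.

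**Figure D1:**
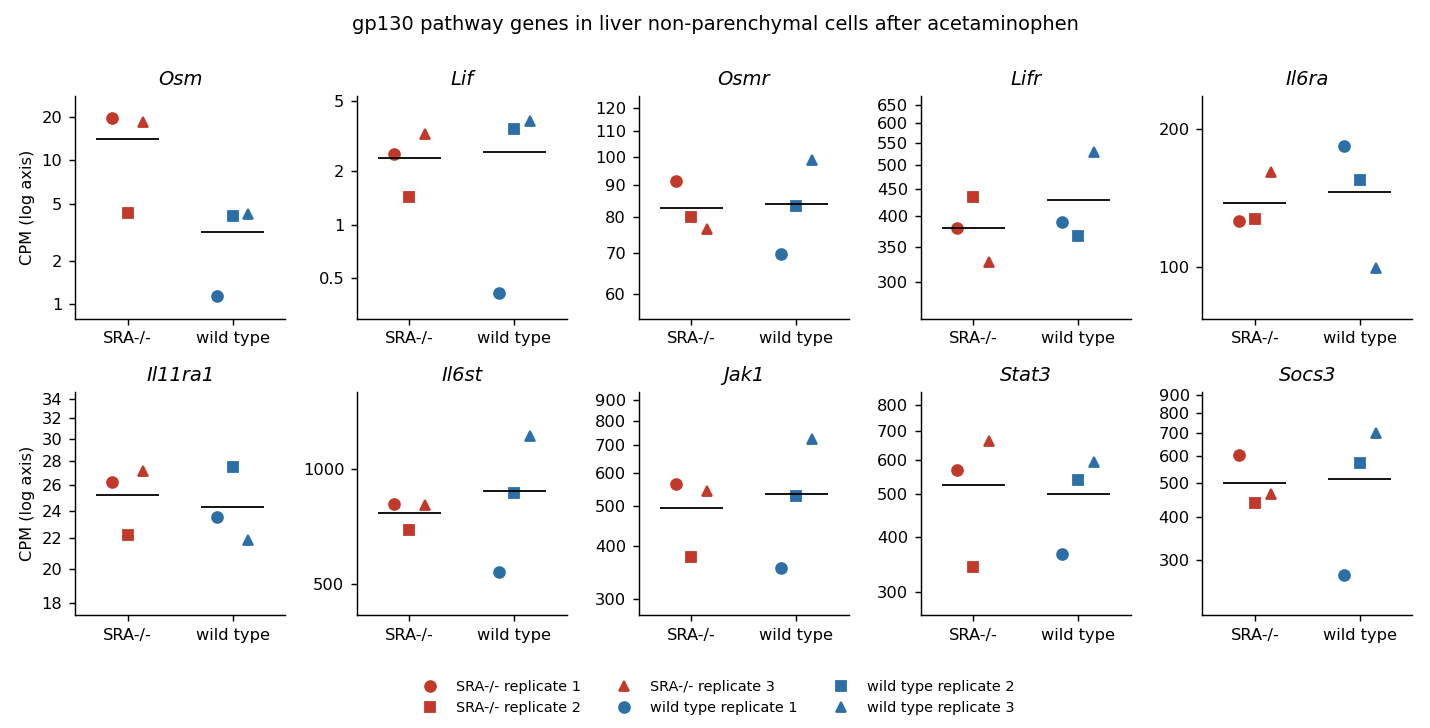
Level of each gene in CPM (log axis, a separate scale for each panel) in SRA-/- libraries (red, left) and wild type libraries (blue, right); the marker shape gives the replicate number and the black line the group mean. Osm is at 19.7 and 18.6 CPM in SRA-/- replicates 1 and 3 and at 4.31 CPM in SRA-/- replicate 2, next to wild type replicates 2 and 3, while the groups overlap in every other panel.

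None of the 10 genes passed the threshold of 0.05 on the adjusted p of edgeR's quasi-likelihood test over all genes, where 0.0487% of 20541 tested genes did (0.0341% higher and 0.0146% lower in SRA-/-). DESeq2 called 0 of the 10 as well, against 0.208% of its tested genes, and limma-voom with quality weights called 0, against 0.482%. By edgeR, 1 of the 10, Osm, had an unadjusted p under 0.05, as did 3.22% of all tested genes (2.32% higher and 0.896% lower), and 1 of the 10, again Osm, had groups that did not overlap in CPM, as did 7.3% of all tested genes (3.97% higher and 3.33% lower). Since Osm entered the list for this difference, these counts carry no weight as evidence.

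Lif, which encodes leukaemia inhibitory factor, was the scarcest of the 10 genes. It had 115, 43 and 71 counts in SRA-/- replicates 1, 2 and 3, against 12, 91 and 129 counts in wild type replicates 1, 2 and 3, or 2.503, 1.44 and 3.22 CPM against 0.412, 3.455 and 3.82 CPM. The groups overlapped fully, with both the lowest and the highest library in wild type, and the log2 fold change was -0.11 ± 0.64 (SE). Lif (chromosome 11, 4207557 to 4222514) lies 16.5 kb from Osm on the same strand with no other gene counted between them. The genes differed all the same in how they lay across libraries. Per exon length, Osm stood at 15.05, 5.74 and 11.03 times the level of Lif in SRA-/- replicates 1, 2 and 3 and at 5.265, 2.27 and 2.12 times in wild type replicates 1, 2 and 3, a ratio that does not depend on scaling between libraries. The lowest SRA-/- ratio exceeded the highest wild type ratio, though SRA-/- replicate 2 and wild type replicate 1 were close, and since it contains Osm it is a description as well.

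The receptor genes overlapped between the genotypes. Osmr, the oncostatin M receptor gene (chromosome 15, 6843058 to 6904450), had 91.3, 80.0 and 76.5 CPM in SRA-/- replicates 1, 2 and 3, against 69.7, 83.3 and 98.7 CPM in wild type replicates 1, 2 and 3. Wild type libraries held both ends of the range, and the log2 fold change was -0.02 ± 0.19 (SE). Lifr, the LIF receptor gene, is 216 kb away from Osmr on the opposite strand (chromosome 15, 7120095 to 7226970). It had 380, 435 and 328 CPM in SRA-/- replicates 1, 2 and 3, against 390, 366 and 528 CPM in wild type replicates 1, 2 and 3, with a log2 fold change of -0.17 ± 0.23 (SE). Here wild type replicate 3 was the high library, and the other 5 overlapped. Across the 6 libraries Osmr and Lifr were each other's nearest gene within the family, with a root mean square difference of 0.179 log2 units between their profiles (log2 CPM minus the gene's own mean over the 6 libraries).

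Il6st, the shared signal-transducing subunit gp130 (chromosome 13, 112600604 to 112646620), had 807, 691 and 802 CPM in SRA-/- replicates 1, 2 and 3, against 537, 863 and 1219 CPM in wild type replicates 1, 2 and 3. SRA-/- libraries lay close together and inside the wild type range. The log2 fold change was -0.19 ± 0.31 (SE), and it was -0.43 without wild type replicate 1. It was above 0 without wild type replicate 3, at 0.13, and with the hepatocyte list mean as covariate, at 0.07. Il6ra, the alpha receptor of interleukin 6 (chromosome 3, 89771366 to 89820503), ran the other way across the wild type libraries. It had 126, 127 and 161 CPM in SRA-/- replicates 1, 2 and 3, against 184, 155 and 99.3 CPM in wild type replicates 1, 2 and 3, and its log2 fold change was -0.08 ± 0.25 (SE). Of its exon bases 2.8% overlap Gm42809 on the opposite strand, and the recorded counting command sets no strand, so reads in that stretch cannot be told apart by gene.

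Il11ra1, the alpha receptor of interleukin 11 (chromosome 4, 41699989 to 41769474), varied least between libraries of a group, with a pooled SD of 0.161 log2 units that only 12.2% of tested genes undercut. Its values were 26.25, 22.2 and 27.1 CPM in SRA-/- replicates 1, 2 and 3, against 23.5, 27.45 and 21.9 CPM in wild type replicates 1, 2 and 3, with a log2 fold change of 0.05 ± 0.17 (SE). Its level is uncertain, because 46.3% of the 50-base stretches of its transcripts in GENCODE vM21 recur in Gm13305 and 15.8% in Il11ra2. That release differs from the vM26 of the counts. The recorded counting command sets no option for reads that align to several places, which are then left out. For the other 9 genes the share of recurring stretches was 2.29% or lower.

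Within each of the 6 libraries the receptor genes kept the order Il6st, Lifr, Il6ra, Osmr, Il11ra1 per exon length. Per exon length, Il6st made up 53.5%, 48.3% and 54.0% of the summed TPM of the 5 receptor genes in SRA-/- replicates 1, 2 and 3, against 41.4%, 54.5% and 59.9% in wild type replicates 1, 2 and 3. The mean share was 51.9% in both groups, with an SD of 3.16 in SRA-/- and 9.52 in wild type libraries (n = 3 each, in percentage points). Lifr followed with 26.65% ± 4.32 in SRA-/- and 27.2% ± 3.60 in wild type cells, and Il6ra with 12.04% ± 1.70 and 12.4% ± 5.98. The share of Osmr was 5.13% ± 0.412 in SRA-/- and 4.73% ± 0.252 in wild type cells, and that of Il11ra1 was 4.24% ± 0.352 and 3.82% ± 1.004 (SD, n = 3 each). Transcripts of Lifr were thus 4.67 to 6.30 times as abundant as those of Osmr over the 6 libraries. In wild type the share of Il6ra lay at 18.2% in replicate 1 and 6.26% in replicate 3, where the share of Il6st was 41.4% and 59.9%.

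**Figure D2:**
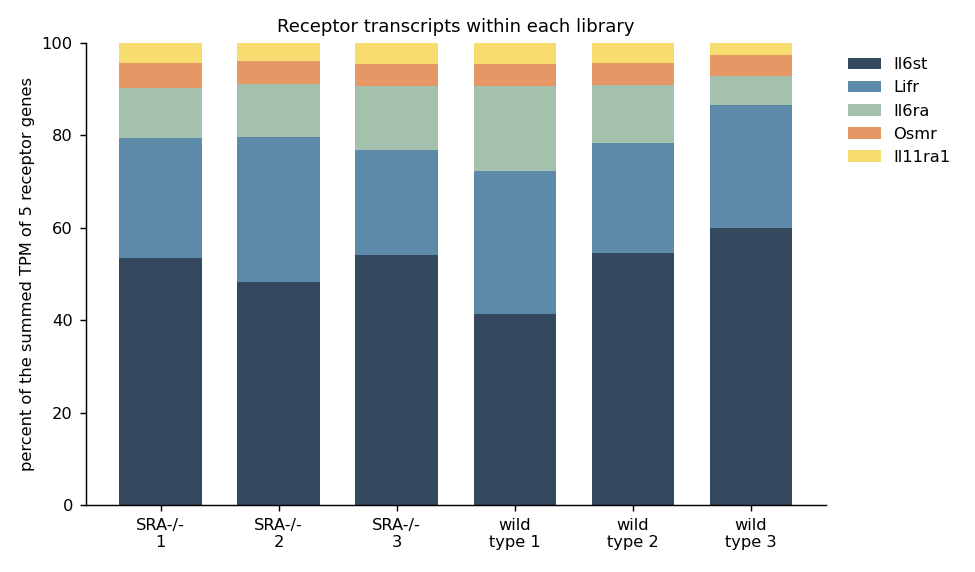
Share of each receptor gene in the summed TPM of the 5 receptor genes, in percent, for each SRA-/- library (left) and each wild type library (right). Il6st takes 48.3% to 54.0% in SRA-/- libraries and 41.4% to 59.9% in wild type libraries, and the order Il6st, Lifr, Il6ra, Osmr, Il11ra1 is the same in all 6 libraries.

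The signalling genes downstream of gp130 also overlapped between the groups. Jak1, the main Janus kinase of the receptor (chromosome 4, 101009564 to 101122479), had 566, 377 and 542 CPM in SRA-/- replicates 1, 2 and 3, against 354, 529 and 723 CPM in wild type replicates 1, 2 and 3, a log2 fold change of -0.11 ± 0.30 (SE). Stat3 (chromosome 11, 100775924 to 100830366) had 569, 342 and 663 CPM in SRA-/- replicates 1, 2 and 3, against 366, 540 and 594 CPM in wild type replicates 1, 2 and 3, a log2 fold change of 0.07 ± 0.30 (SE). In both genes SRA-/- replicate 2 and wild type replicate 1 formed the low end. These are transcript levels and hold no measure of phosphorylated STAT3.

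Socs3, the feedback inhibitor (chromosome 11, 117856905 to 117860873), had 27695, 13138 and 10273 counts in SRA-/- replicates 1, 2 and 3, against 7900, 15131 and 23686 counts in wild type replicates 1, 2 and 3. That is 603, 439 and 466 CPM against 271.5, 574.5 and 701 CPM, with means of 503 ± 87.8 CPM in SRA-/- and 516 ± 221 CPM in wild type cells (SD, n = 3 each) and a log2 fold change of -0.04 ± 0.34 (SE). Wild type replicates 1 and 3 were the extremes, and every SRA-/- library fell between them.

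Socs3 is a textbook target of STAT3, and its promoter is shown for the STAT-type palindrome in it, set in capitals. The window runs from 250 bases before to 50 bases after the RefSeq start site, at chr11:117969317-117969616 on the minus strand of GRCm38.p6, a different build from that of the counts.
Socs3: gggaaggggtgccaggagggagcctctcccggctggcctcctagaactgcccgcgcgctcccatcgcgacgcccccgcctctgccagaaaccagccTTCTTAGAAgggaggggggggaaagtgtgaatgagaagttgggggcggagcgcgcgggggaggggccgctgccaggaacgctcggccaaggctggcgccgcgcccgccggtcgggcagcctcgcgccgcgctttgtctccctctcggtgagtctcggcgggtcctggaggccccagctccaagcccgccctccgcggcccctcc
The capitals mark the match to TTCNNNGAA at positions -154 to -146 from the start site; the motif reads the same way on both strands and overlapped no other match. Windows were found for 9 of the 10 genes, 11 windows in all, Osm being the gene with none, and 1 of the 11 held the motif, against 8.3% of all 32851 promoter windows. A match of letters is a description and shows no binding.

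Per exon length the order of the genes was Socs3, Il6st, Jak1, Stat3, Lifr, Il6ra, Osmr, Il11ra1, Osm and Lif, with mean levels over all 6 libraries of 441, 184, 178, 134, 92.2, 40.0, 17.0, 13.6, 9.59 and 1.45 TPM. Several neighbours in this order were not separated. Il6st exceeded Jak1 in 3 of 6 libraries and Il11ra1 exceeded Osm in 4 of 6. Stat3 exceeded Lifr in 5 of 6. Socs3 exceeded Il6st and Jak1 exceeded Stat3 in all 6 libraries, although the ranges over libraries overlapped. Between Lifr and Il6ra, and between Il6ra and Osmr, the ranges did not overlap. In CPM, which does not divide by length, Il6st came before Jak1, Stat3 and Socs3, the exons of Socs3 adding up to 2891 bases and those of Il6st to 11099 bases. Osm reached 22.4 and 20.05 TPM in SRA-/- replicates 1 and 3, above Osmr in those libraries at 19.5 and 15.5 TPM, while in SRA-/- replicate 2 and all wild type libraries Osm was below Osmr.

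**Figure D3:**
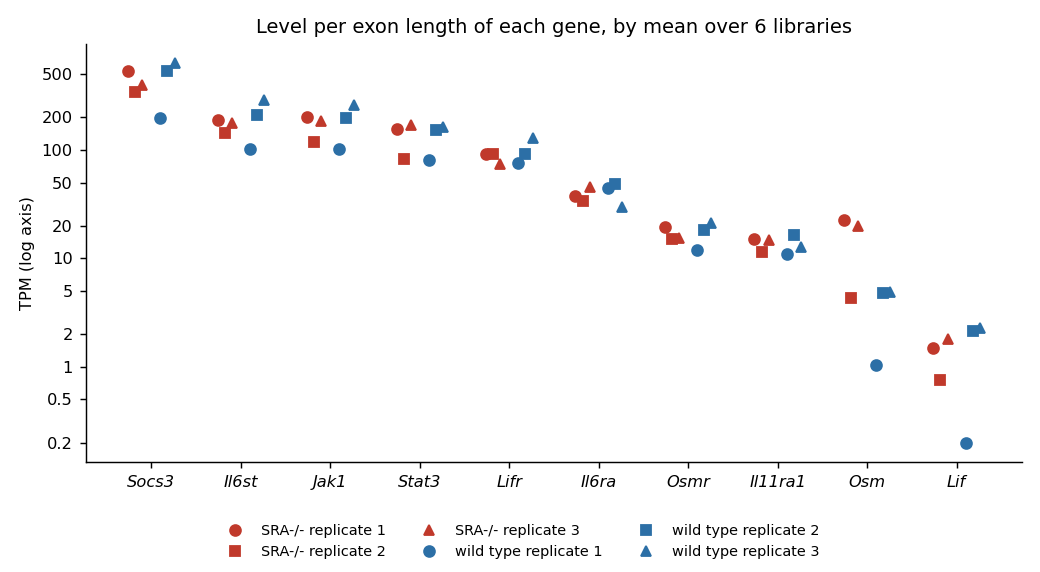
Level per exon length in TPM (log axis) of the 10 genes, ordered by mean over the 6 libraries, with SRA-/- libraries in red to the left of wild type libraries in blue for each gene. Socs3 averages 441 TPM and Lif 1.45 TPM, and Osm has the widest spread relative to its level, from 1.04 TPM in wild type replicate 1 to 22.4 TPM in SRA-/- replicate 1.

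Apart from Osm, the remaining 9 genes had log2 fold changes between -0.19 and 0.07, each smaller than its own SE, which ran from 0.17 to 0.64. Those SEs leave room for differences that this design could not show, mostly so for Lif. Of all 10 genes, 3 had a log2 fold change above 0, and the median was -0.06; among all tested genes 48.3% were above 0 and the median was -0.01. Spread within the groups was large for the ligands, with pooled SDs of 1.145 for Osm and 1.28 for Lif on the log2 scale, above those of 98.1% and 98.85% of tested genes. The median over all tested genes was 0.356.

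**Figure D4:**
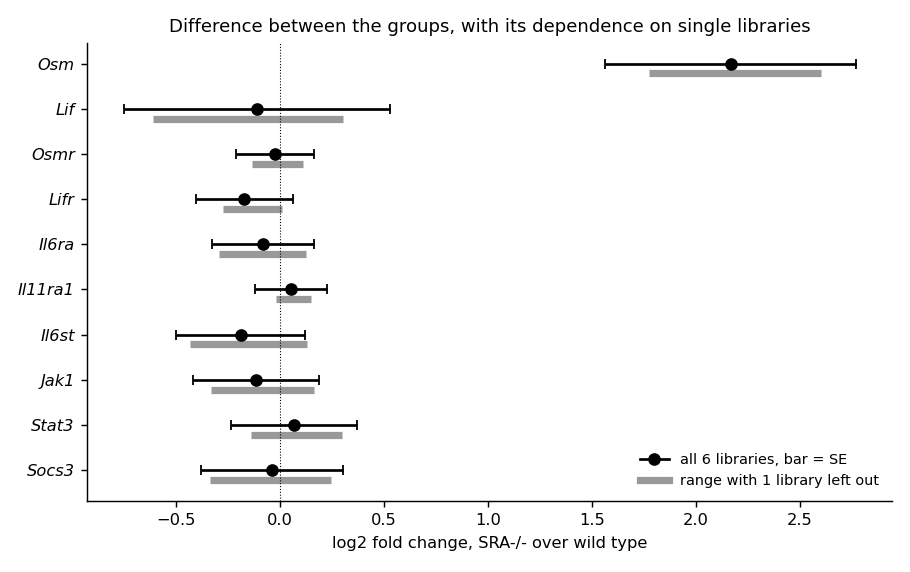
Log2 fold change, SRA-/- over wild type, for each gene from all 6 libraries (black point, bar = SE) and its range when 1 library is left out at a time (grey bar). Osm lies at 2.17 with a range of 1.77 to 2.5996, and the 9 other genes lie between -0.19 and 0.07 with grey bars that reach both sides of 0.

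The extremes of most receptor and signalling genes lay in wild type libraries. Wild type replicate 3 had the highest value of 6 of the 10 genes (Osmr, Lif, Lifr, Il6st, Jak1 and Socs3), and wild type replicate 1 the lowest value of 6 (Osm, Osmr, Lif, Il6st, Jak1 and Socs3). The median of the 10 genes stood 0.33 log2 units above its mean in wild type replicate 3 and at -0.47 in wild type replicate 1, while SRA-/- libraries held values of 0.16, -0.18 and 0.13 in replicates 1, 2 and 3. Il6st and Jak1 were the closest pair of the family, with a root mean square difference of 0.124 log2 units. At the other end 8 of the 10 genes had Osm as the gene farthest from them, while Osm and Lif were farthest from Il6ra.

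Profiles of several cell type marker lists lay near those of these genes. The 12 tested endothelial markers had median deviations of -0.03, -0.07 and -0.30 log2 units in SRA-/- replicates 1, 2 and 3, against -0.34, 0.17 and 0.50 in wild type replicates 1, 2 and 3, where Il6st had 0.02, -0.20 and 0.01 against -0.57, 0.12 and 0.62. Of all marker lists with tested genes, the endothelial one was nearest to Il6st (0.174 log2 units), Osmr (0.163), Lifr (0.196), Jak1 (0.245) and Socs3 (0.269), in a ranking added after the values were seen. The next list was that of stellate cells and fibroblasts for Osmr (0.220), Lifr (0.236) and Il6st (0.335). It was that of monocytes for Jak1 (0.324) and of cholangiocytes and mesothelial cells for Socs3 (0.3185). Monocyte markers were the list nearest to Stat3 (0.266), Il11ra1 (0.229) and Lif (0.847). Cholangiocyte and mesothelial markers came next, at 0.341, 0.284 and 0.8915 in the same order. The nearest single tested genes lay closer than the endothelial median, at 0.042 log2 units for Il6st and 0.030 for Osmr. The most abundant gene of the endothelial list was Stab2, at 732 CPM, and no marker of it was at 0. The 16 hepatocyte markers, led by Alb, had median deviations of -0.03, 0.02 and 0.52 in SRA-/- replicates 1, 2 and 3, against 0.574, -0.001 and -1.01 in wild type replicates 1, 2 and 3, and were the list nearest to Il6ra (0.277), whose deviations were -0.14, -0.13 and 0.21 against 0.40, 0.15 and -0.49. What part cell makeup had in these levels was not tested.

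Neutrophil markers were the list nearest to Osm, at 0.380 log2 units, with the next list, that of monocytes, at 1.15. Their 12 tested genes had median deviations of 1.28, -0.40 and 1.44 in SRA-/- replicates 1, 2 and 3, against -1.66, -0.77 and -0.12 in wild type replicates 1, 2 and 3. The deviations of Osm were 1.79, -0.38 and 1.71 in SRA-/- and -2.25, -0.45 and -0.41 in wild type libraries. The list summed to 427, 161.5 and 423 CPM in SRA-/- libraries and 143, 164 and 197 CPM in wild type libraries, with the groups overlapping. Hdc, the histidine decarboxylase gene, which other cells make too, was the most abundant of the list at a mean of 115 CPM, with 82.3 to 154 CPM in SRA-/- and 96.2 to 112 CPM in wild type libraries. Without it the other 15 markers summed to 273, 79.2 and 281 CPM in SRA-/- and 30.9, 67.9 and 93.9 CPM in wild type libraries. All 12 tested markers had log2 fold changes above 0, against 48.3% of all tested genes. The groups did not overlap for 4 of the 16 listed genes, against 7.3% of all tested genes (3.97% higher and 3.33% lower). Camp and Ly6g were at 0 in some libraries and at most 0.681 CPM in any. Other lists shifted too. Log2 fold changes were above 0 for 6 of 6 tested B cell markers and 8 of 9 tested T and NK cell markers. Of 12 tested endothelial markers 0 were above 0. Groups did not overlap for 5 of 6 B cell markers, 4 of 10 T and NK cell markers and 11 of 13 acinar markers. The part of neutrophil RNA in the difference of Osm was not tested.

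**Figure D5:**
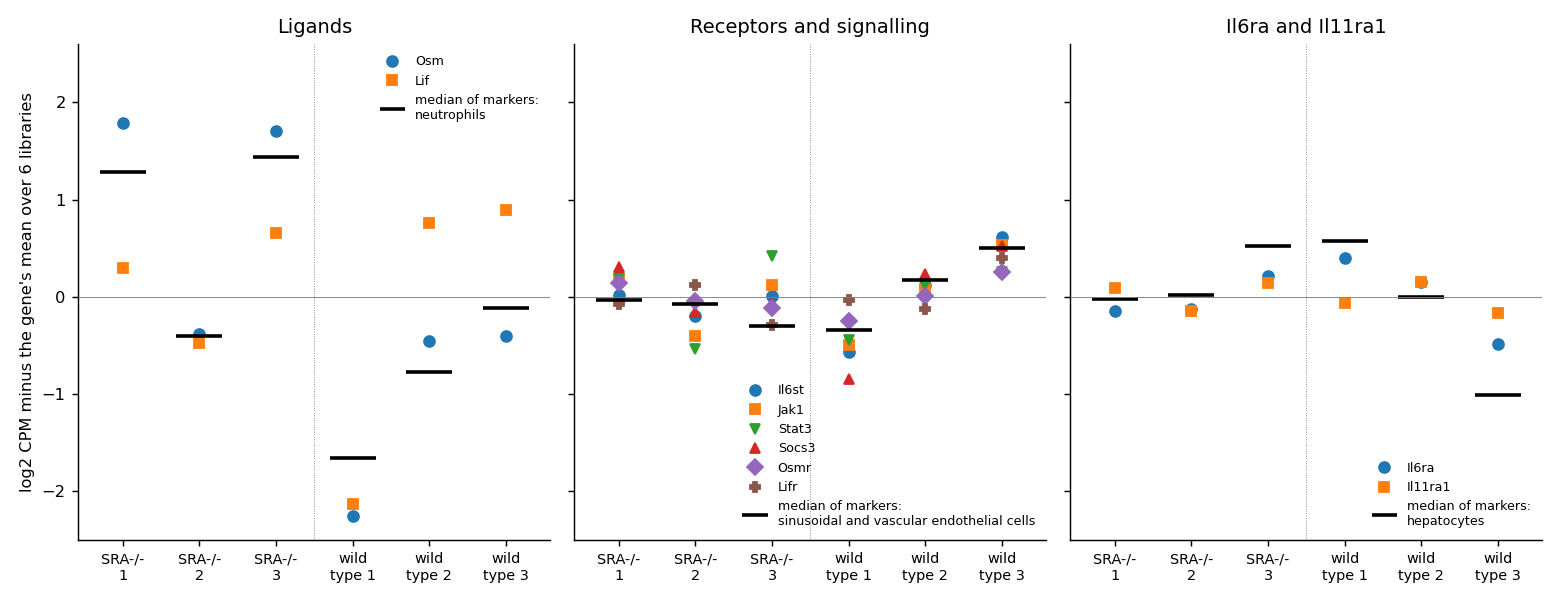
Log2 CPM of each gene minus its own mean over the 6 libraries (points) beside the median of the same quantity over a cell type's marker genes (black bars), for SRA-/- libraries (left of the dotted line) and wild type libraries (right). The bars beside Lif (neutrophil), Stat3 (endothelial) and Il11ra1 (hepatocyte) are not those of their nearest list, which was monocytes. Osm follows the neutrophil median, with 1.79 and 1.28 in SRA-/- replicate 1 and -2.25 and -1.66 in wild type replicate 1; Il6st, Jak1 and Socs3 are high in wild type replicate 3 with the endothelial median, at 0.50, and Il6ra is low there with the hepatocyte median, at -1.01.

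Among 12977 tested genes of at least 1 CPM, the 8 whose profile over the 6 libraries was most like that of Osm were S100a9, Cxcr2, Slc7a11, Il1r2, Slfn4, Rdh12, Retnlg and Mmp8, at root mean square differences of 0.270 to 0.396 log2 units, where the median gene was at 1.41. S100a9, a subunit of calprotectin, had 33.6, 7.88 and 47.4 CPM in SRA-/- replicates 1, 2 and 3, against 2.99, 6.53 and 9.03 CPM in wild type replicates 1, 2 and 3. Cxcr2, a receptor for neutrophil-attracting chemokines, had 12.7, 2.10 and 16.7 CPM in SRA-/- libraries, against 0.687, 2.13 and 3.67 CPM in wild type libraries. Slc7a11, which encodes the cystine transporter of the cell membrane, had 39.3, 11.02 and 25.2 CPM in SRA-/- libraries, against 2.34, 9.26 and 11.8 CPM in wild type libraries. SRA-/- replicate 2 lay inside the wild type range in all 3 genes. Of the 8 genes 5 are on the neutrophil marker list. With a minimum of 5 CPM, 6 of the 8 were again among the nearest. Likeness over 6 libraries ranks genes by shape and carries no test.

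The other ligands of the family gave no call. Of 9 tested genes 0 passed edgeR's test in either direction and 0 had an unadjusted p under 0.05; 5 were above 0 and the median log2 fold change was 0.05. Il6, the most abundant of them, had 30.8, 30.3 and 16.9 CPM in SRA-/- replicates 1, 2 and 3, against 15.5, 56.5 and 61.0 CPM in wild type replicates 1, 2 and 3, a log2 fold change of -0.77 ± 0.45 (SE). Its groups overlapped through wild type replicate 1, which was also the low library for Osm and Lif. Clcf1, cardiotrophin-like cytokine factor, had 22.3 ± 1.98 CPM in SRA-/- and 16.1 ± 6.52 CPM in wild type cells (SD, n = 3 each), with 0.47 ± 0.29 (SE), and Ctf2 had 0.28 ± 0.058 and 0.43 ± 0.082 CPM. Il31 was too scarce to test.

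Of 6 tested receptors related to gp130, 0 passed edgeR's test and 1 had an unadjusted p under 0.05, against 3.22% of all tested genes. This was Csf3r, which encodes the G-CSF receptor and is itself a neutrophil marker, at 30.9 ± 12.7 CPM in SRA-/- and 10.2 ± 4.24 CPM in wild type cells (SD, n = 3 each), with a log2 fold change of 1.60 ± 0.40 (SE) and an adjusted p of 0.761 by edgeR. DESeq2 called Csf3r and no other gene of the list. Csf3r was also the 1 gene of the 6 whose groups did not overlap, against 7.3% of all tested genes (3.97% higher and 3.33% lower). Lepr, the leptin receptor and the most abundant of the list per exon length, had a log2 fold change of -0.19 ± 0.26, Il27ra -0.40 ± 0.25 and Il31ra, which pairs with the oncostatin M receptor, -0.36 ± 0.30 (SE). The list had 2 genes above 0 and a median of -0.12.

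Of 9 other Janus kinases and STATs 0 passed edgeR's test, 5 were above 0 and the median was 0.01. Stat4 had 2.34 ± 0.378 CPM in SRA-/- and 1.32 ± 0.510 CPM in wild type cells (SD, n = 3 each), with groups that did not overlap, a log2 fold change of 0.82 ± 0.36 (SE) and an adjusted p of 0.9999 by edgeR. Stat2, the most abundant per exon length, was level at 116 ± 21.2 CPM in SRA-/- and 115.5 ± 11.2 CPM in wild type cells (SD, n = 3 each). Tyk2 had a log2 fold change of -0.26 ± 0.18 (SE). Among 15 other inhibitors, 9 were above 0 with a median of 0.03, and 0 passed or had an unadjusted p under 0.05. The groups did not overlap for 1 of the 15, Pias1, against 7.3% of all tested genes. Pias1, picked after its values were seen, had 33.1 ± 1.74 CPM in SRA-/- and 35.2 ± 0.585 CPM in wild type cells (SD, n = 3 each). The phosphatase gene Ptpn6 had 0.48 ± 0.27, Socs7 0.19 ± 0.17, Pias3 -0.30 ± 0.23 and Ptpn1, the most abundant per exon length, 0.10 ± 0.25 (log2 fold change ± SE).

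The 5 genes of receptor shedding, by which ADAM proteases release soluble receptors, gave 0 calls and 0 genes with an unadjusted p under 0.05. Rhbdf2, a partner of ADAM17, had 124.5 ± 28.3 CPM in SRA-/- and 91.2 ± 6.01 CPM in wild type cells (SD, n = 3 each), and the log2 fold change was 0.45 ± 0.21 (SE). Rhbdf1 had 0.35 ± 0.19, Adam17 0.21 ± 0.16 and Timp3, an inhibitor of ADAM17 and the most abundant of them, -0.13 ± 0.33.

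STAT3 targets that many cell types share gave 0 calls among 24 tested genes. Of these 18 were above 0 (75%, against 48.3% of all tested genes), with a median log2 fold change of 0.12. The median was -0.04 without wild type replicate 1 and 0.02 without SRA-/- replicate 1. Junb, the most abundant per exon length, had 781 ± 97.3 CPM in SRA-/- and 700.0 ± 154.5 CPM in wild type cells (SD, n = 3 each), with 0.16 ± 0.26 (SE). Bcl3 had 0.25 ± 0.19 and Pim2 0.36 ± 0.25 (log2 fold change ± SE). The 1 gene with an unadjusted p under 0.05 by edgeR was lower in SRA-/- cells, against 0.896% of all tested genes in that direction. It was Il10, the gene of the anti-inflammatory cytokine interleukin 10, at 33.5, 22.01 and 21.2 CPM in SRA-/- replicates 1, 2 and 3, against 26.4, 48.7 and 44.3 CPM in wild type replicates 1, 2 and 3, with a log2 fold change of -0.64 ± 0.27 (SE) and an adjusted p of 0.9999 by edgeR. Wild type replicate 1 lay within the SRA-/- range.

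The acute phase targets of STAT3, which hepatocytes make, had a median log2 fold change of 0.47, and 0 passed edgeR's test. Of 22 tested genes 19 were above 0 (86.4%, against 48.3% of all tested genes). The median was 0.012 without SRA-/- replicate 3, 0.23 without wild type replicate 3 and 0.18 with the hepatocyte list mean as covariate. An unadjusted p under 0.05 was found for 4, all higher in SRA-/- cells, against 2.32% of all tested genes. Saa1, a serum amyloid A gene, had 15.8, 26.0 and 110 CPM in SRA-/- replicates 1, 2 and 3, against 9.24, 8.50 and 4.32 CPM in wild type replicates 1, 2 and 3, a log2 fold change of 2.78 ± 0.71 (SE, adjusted p 0.803 by edgeR). Saa2, its close copy, had 8.31, 10.35 and 78.0 CPM against 2.68, 1.82 and 2.37 CPM in the same order of groups, and Orm2, an orosomucoid gene, had 6.24 ± 2.55 CPM in SRA-/- and 2.64 ± 0.180 CPM in wild type cells (SD, n = 3 each). The fourth was Hamp, the hepcidin gene, outside the rule for named genes and picked after its values were seen, at 0.69 ± 0.27 (log2 fold change ± SE). These 4 were also the genes of the 22 whose groups did not overlap, as in 7.3% of all tested genes (3.97% higher and 3.33% lower). Hpx, the most abundant, had 0.30 ± 0.40. SRA-/- replicate 3, with the highest Saa1, Saa2 and Orm2, also had the highest hepatocyte marker sum, 101700 CPM. Wild type replicate 1 had 88830 CPM of hepatocyte markers and 9.24 CPM of Saa1. The part of hepatocyte RNA in these values was not tested, and reads shared between Saa1 and Saa2 or between the orosomucoid genes could not be assigned.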

How the data were processed

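RNA from liver non-parenchymal cells, depleted of ribosomal RNA, was sequenced in 6 libraries, 3 of SRA-/- and 3 of wild type mice, grouped by the titles. The authors deposited whole-number read counts per gene made with featureCounts 2.0.2 on exons of the GENCODE vM26 annotation, per the file headers; mates were counted singly, no strand was set, and the aligner was STAR on build mm39, per the submitters' processing notes. The headers' exon lengths gave TPM. Counts of all 53546 genes were fitted in edgeR 4.0.16 (TMM, filterByExpr, robust quasi-likelihood test, group alone, Benjamini-Hochberg adjustment over 20541 tested genes, threshold 0.05), checked on simulated data. CPM uses TMM effective library sizes; log2 deviations use a prior count of 2. Members and lists were chosen with earlier results of these data known, so members carry no test. An exact permutation test of 3 against 3 libraries cannot go below 0.1 and was not used. The titles call the replicates biological, but whether they came from separate animals is not stated. The p-values set the group difference against the spread between these libraries and may not extend to animals.

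Named were all members, the most abundant gene of each of 7 pathway lists with up to 3 of smallest unadjusted p, the most abundant gene of each marker list a result uses, and the 8 genes nearest to Osm. A gene that this rule names is not reported here. Alternatives were DESeq2 1.42.0, limma-voom 3.58.1 with quality weights, other scalings and filters, a hepatocyte covariate, a replicate block, and each library left out. Promoter sequence came from RefSeq. Work ran in R 4.3.3 and Python.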

Additional observations from a re-analysis of the deposited data

How the results depend on the processing

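With all 6 libraries edgeR called 10 genes. The count was 59 with DESeq2 (48 higher, 11 lower), 99 with limma-voom (73 higher, 26 lower), 32 without a filter on low counts, 19 with the hepatocyte list mean as covariate, and 3 (without SRA-/- replicate 3) to 40 (without SRA-/- replicate 2) with 1 library left out; dropping SRA-/- replicate 1 gave 4, as did dropping wild type replicate 2. None of the 10 gp130 pathway genes was called in any of the 15 alternatives, and the log2 fold changes stayed within 1 SE in 149 of 150 values, the exception being Il6st. Osm stayed above 0 in all 15, with an adjusted p of 0.139 to 1 and an unadjusted p under 0.05 in 13 of 15. These fits reuse the libraries in which Osm was chosen for its difference, so this tally carries no weight as evidence. The sign of each other gene changed under at least 1 alternative. Of 105 list counts 104 were the same; the exception was 1 related receptor, Csf3r, called by DESeq2. With 1 library left out, the list medians ran from -0.35 to 0.26 for other ligands, -0.31 to 0.03 for other receptors, -0.14 to 0.14 for other kinases and STATs, -0.07 to 0.11 for inhibitors, 0.14 to 0.26 for shedding genes, -0.04 to 0.22 for shared STAT3 targets and 0.012 to 0.76 for acute phase targets; the causes were not tested. Replicate numbers did not pair the libraries (same-number correlations of deviations -0.287, -0.143 and -0.131; 0 of 6 libraries lay closest to their own number), and the fit with the replicate number as a block called 5 genes. Counting depth limits Osm and Lif most, at 33 and 12 counts in wild type replicate 1.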
